A study of Sus scrofa with 6 samples.

Results

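The HOX genes of the pig were taken from the deposited table as every gene whose symbol is HOX, a cluster letter from A to D and a number. This gave 36 genes of the 31908 Ensembl genes in the table, with 8 genes of the HOXA, 10 of the HOXB, 9 of the HOXC and 9 of the HOXD cluster. The level of a gene was the sum of the FPKM (fragments normalised to transcript length and to the number of mapped fragments) of all transcripts that share its gene identifier, so that levels of different genes can be compared per length. The samples were the longissimus dorsi (LD), a muscle that runs along the spine, of 6 castrated male Laiwu pigs, a Chinese breed, with 1 library per pig and without treatment. The S-H group (LW63, LW70 and LW119) had very high and the S-L group (LW82, LW88 and LW90) very low intramuscular fat (IMF) content, and ages are not given in the sources used here. As the study's methods describe, the muscle was cut where the thoracic part of the back meets the lumbar part, and the RNA was depleted of ribosomal RNA and sequenced with strand information.

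HOX genes encode transcription factors with a homeodomain, the part that binds DNA. They lie in 4 clusters, and genes that hold the same place in different clusters form the 13 paralogue groups. In the embryo, low-numbered groups are switched on early and toward the head, and high-numbered groups later and toward the tail, so that the set in use marks a position along the body axis. Group 10 genes are known for the patterning of the lumbar region, group 11 genes for the sacral region and groups 12 and 13 for the tail, the distal limb and the urogenital tract, and many adult connective tissues and muscles keep part of the embryonic pattern.

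The tissue label was checked with marker genes. Of 8 fibre markers, 4 were found by symbol or identifier, and their summed level lay between 5593 and 9137 FPKM in the 6 pigs. ADIPOQ, PLIN1, FABP4, CIDEC and LEP, markers of fat cells, summed to between 372.7 and 1045 FPKM in S-H and between 158.5 and 285.4 FPKM in S-L, without overlap. In bulk muscle, fewer cells of a type and less RNA per cell cannot be told apart. The 5 markers of fibroblasts and fibro-adipogenic progenitors summed to between 304.9 and 630.4 FPKM in S-H and between 329.7 and 514.9 FPKM in S-L, with overlap. The table holds FPKM and no read counts, so that the number of fragments behind a single value is not known from it, and precision is given by the spread between pigs. The labels name no batch.

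The HOX genes found in the back muscle of every pig came from paralogue groups 1 to 10. A level of at least 0.1 FPKM in every pig was found for 16 of the 36 genes, namely HOXA5, HOXA7, HOXA10, HOXB2, HOXB3, HOXB6, HOXB7, HOXC6, HOXC8, HOXC9, HOXC10, HOXD1, HOXD3, HOXD4, HOXD8 and HOXD9. Every paralogue group from 1 to 10 had at least 1 of these genes, and groups 11 to 13 had none. Groups 5 to 10 held 11 of the 16. A level of at least 1 FPKM in every pig was reached by 9 genes, HOXA5, HOXA7, HOXB7, HOXC8, HOXC9, HOXD1, HOXD4, HOXD8 and HOXD9. Another 10 genes reached 0.1 FPKM in some pigs only, and 10 genes in none.

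HOXD8, on chromosome 15 from 81931383 to 81935529 of the Sscrofa11.1 assembly, had by far the highest level of the 36 genes. It stood at 31.2 FPKM in LW63, 46.2 in LW70 and 23.6 in LW119, and at 25.8 FPKM in LW82, 23.9 in LW88 and 27.8 in LW90. HOXD8 was the first-ranked HOX gene in all 6 pigs, and its mean of 29.7 FPKM was above that of 92.5% of the 16333 genes tested between the groups. It alone accounted for 44.8% ± 4.57 (SD, n = 6) of the FPKM summed over the 36 genes, with the lowest share, 38.9%, in LW82 and the highest, 53.0%, in LW70. S-H and S-L overlapped, since LW119 was the lowest of the 6 pigs.

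Behind HOXD8 came 6 genes with means between 3.33 and 4.47 FPKM, whose order changed from pig to pig. HOXD1, a group 1 gene at the end of the HOXD cluster that is used nearest the head (chromosome 15, 81987752 to 81990807), had 4.47 ± 1.33 FPKM (SD, n = 6). HOXD9 had 4.47 ± 0.307, HOXA7 4.23 ± 1.51, HOXC9 4.06 ± 1.07, HOXD4 3.75 ± 0.963 and HOXA5 3.33 ± 1.31 FPKM (SD, n = 6 each). The SDs of these neighbours were larger than the steps between their means, so that neighbours in this order did not differ beyond the spread between pigs. HOXD1 ranked second in LW63, LW119 and LW90, HOXA7 in LW70, HOXA5 in LW82 and HOXD9 in LW88. HOXC8 (2.38 ± 0.608), HOXC10 (1.73 ± 0.708), HOXB7 (1.49 ± 0.302) and HOXC6 (1.27 ± 0.374 FPKM, SD, n = 6 each) followed.

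**Figure D1:**
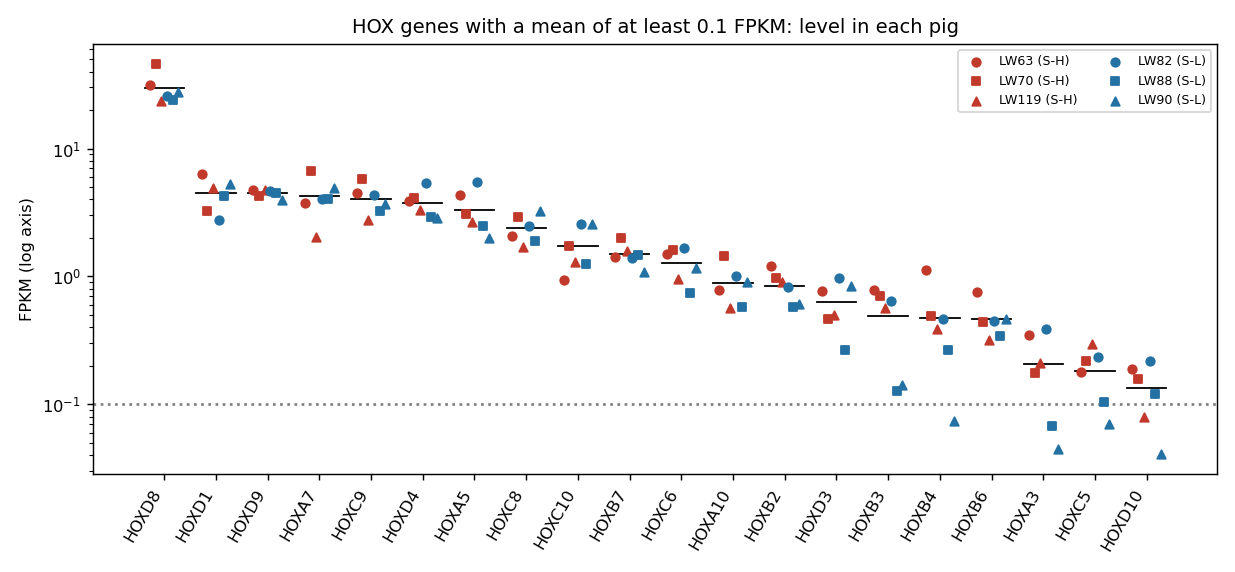
FPKM of the 20 HOX genes with a mean of at least 0.1 FPKM in each pig (log axis), ordered by their mean (black line), with S-H pigs in red and S-L pigs in blue. HOXD8 lies above every other gene in all 6 pigs, HOXD9 shows the narrowest spread, and LW88 and LW90 fall far below the other pigs for HOXB3 and HOXA3. The dotted line marks 0.1 FPKM.

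By cluster, the 9 HOXD genes made up 65.9% ± 2.98 of the summed HOX FPKM, the 9 HOXC genes 14.9% ± 1.97, the 8 HOXA genes 13.3% ± 1.93 and the 10 HOXB genes 5.89% ± 1.34 (SD, n = 6 each). The HOXD cluster was first in every pig, with shares between 60.3% and 68.9%. The order of HOXA and HOXC depended on which genes were counted, since with HOXA4 and HOXA9, which carry no symbol in the table, HOXA held 20.6% ± 3.45 and HOXC 13.6% ± 1.70 (SD, n = 6 each), with HOXA higher in all 6 pigs. The shares by paralogue group leave these 2 genes out as well. Between pigs the summed level of the 36 genes ranged from 53.4 FPKM in LW88 to 87.1 FPKM in LW70, and LW119 (53.8), LW90 (62.1), LW82 (66.3) and LW63 (71.4 FPKM) lay between. Without HOXD8 the range narrowed to between 29.5 FPKM in LW88 and 41.0 FPKM in LW70.

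By paralogue group, group 8 held 48.5% ± 4.57 of the summed FPKM, group 9 13.2% ± 1.07, group 7 8.66% ± 1.52, group 1 7.18% ± 2.48, group 4 6.60% ± 1.54, group 5 5.47% ± 1.93 and group 10 4.19% ± 1.25 (SD, n = 6 each). Groups 2, 3 and 6 held 1.37% ± 0.299, 2.02% ± 0.807 and 2.62% ± 0.462 (SD, n = 6 each). Groups 11 to 13 together held at most 0.424% in any pig. The share of group 8 rested on HOXD8. On a scale of summed log2(FPKM + 1), which weighs high values less, group 8 still had the largest share among the genes with a symbol, 22.6%. Group 9 had 16.2% and group 7 12.3%. HOXA9, which carries no symbol in the table, is not in these shares. Its mean of 5.33 FPKM was above that of HOXC9 (4.06 FPKM) and HOXD9 (4.47 FPKM), so that it would raise group 9. The order of groups 8 and 9 with HOXA9 was not computed on this scale. The lead of group 8 on it is therefore shown only without HOXA9.

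The paralogues of a group were not used alike. In group 1, HOXD1 had between 2.77 and 6.35 FPKM and HOXB1 was listed at 0 in all 6 pigs. In group 8, HOXD8 and HOXC8 (between 1.70 and 3.26 FPKM) stood against HOXB8, which was at most 0.0810 FPKM and was listed at 0 in LW88 and LW90. In group 9, HOXD9 and HOXC9 stood against HOXB9, at most 0.0622 FPKM. In the HOXB cluster HOXB2, HOXB3, HOXB6 and HOXB7 had at least 0.1 FPKM in every pig, HOXB4 in every pig but LW90, and HOXB5, with at most 0.155 FPKM, in 1 pig. In group 10, HOXC10 (chromosome 5, 19197807 to 19202970) had between 0.930 and 2.58 FPKM and HOXA10 between 0.562 and 1.45 FPKM, while HOXD10 had between 0.0406 and 0.217 FPKM.

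Levels were low beyond group 10. HOXA11 was above 0 in 2 pigs, at most 0.0155 FPKM, HOXC11 in 3 pigs, at most 0.108 FPKM, and HOXD11 in 5 pigs, at most 0.163 FPKM. HOXC12 and HOXD12, the 2 genes of group 12, were listed at 0 in all 6 pigs, as was HOXD13. The other genes of group 13 were each above 0 in a single pig, HOXA13 in LW90 (0.0125 FPKM), HOXB13 in LW82 (0.00967 FPKM) and HOXC13 in LW88 (0.0872 FPKM). The pigs were not identical here, since 0.1 FPKM was reached by HOXD11 in LW82 (0.163 FPKM) and LW90 (0.112 FPKM) and by HOXC11 in LW82, and by no gene of groups 11 to 13 in the other 4 pigs. In LW90 HOXD11 was above HOXD10 (0.0406 FPKM). The summed level of group 10 was at least 1.90 FPKM in each pig, and that of groups 11 to 13 at most 0.281 FPKM. A value listed at 0 means that no fragment was assigned to a transcript and does not show that the gene is silent.

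HOXA4, HOXA6 and HOXA9 carry no symbol in the table and were not among the 36 genes. With these 3 genes, the symbols of the table and of the RefSeq annotation of the same assembly came to 39. The gene table used for names gives HOXA9 for an unnamed Ensembl gene (chromosome 18, 45408377 to 45411510), which had 5.92 FPKM in LW63, 4.55 in LW70, 3.87 in LW119, 8.41 in LW82, 5.02 in LW88 and 4.24 in LW90. With a mean of 5.33 ± 1.66 FPKM (SD, n = 6) HOXA9 would rank second after HOXD8. A further unnamed Ensembl gene overlaps 87.5% of the RefSeq locus of HOXA9 and had between 0.580 and 1.07 FPKM, so that fragments may have been divided between them. That gene (chromosome 18, 45383110 to 45410647) also spans the loci of HOXA10 and HOXA11, so that the same may hold for their values. An unnamed Ensembl gene that lies whole within RefSeq HOXA4 (chromosome 18, 45443407 to 45445642) had between 0.611 and 0.946 FPKM. With HOXA4 and HOXA9, 18 HOX genes had at least 0.1 FPKM in every pig. The RefSeq locus of HOXA6 lies whole within the Ensembl locus of HOXA5, so that the values of HOXA5 may hold fragments of HOXA6. In the same way, the loci of HOXD3 and HOXD4 overlap by 626 bp as Ensembl transcripts and by 5105 bp with the assembled transcript of HOXD4. That transcript carried between 67.9% and 87.3% of the level of HOXD4, and from the Ensembl transcript alone HOXD4 had a mean of 0.974 FPKM, with 0.364 FPKM in LW90. Whether strand was used in the quantification is not given in the sources used here.

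The order of levels over the 36 genes was much alike in the 6 pigs. Over the 15 pairs of pigs, Pearson's r of log2(FPKM + 0.1) across the 36 genes lay between 0.94 and 0.98 and Spearman's rho between 0.91 and 0.97. These genes include many at or near 0. Across the 20 HOX genes with a mean of at least 0.1 FPKM, r lay between 0.90 and 0.97, with a median of 0.956. Across all 16333 genes that meet the same minimum it lay between 0.94 and 0.96, with a median of 0.950. The lowest r was thus lower in the HOX genes, while the median and the highest r were not. These are descriptions across genes, which are not independent replicates, and the pairs share pigs. The coefficient of variation (CV, SD divided by mean) over the 6 pigs had a median of 34.9% among the 20 HOX genes with a mean of at least 0.1 FPKM, against 31.9% among all tested genes and 34.6% among those below 10 FPKM.

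The steadiest member was HOXD9 (chromosome 15, 81924142 to 81926274). It had 4.76 FPKM in LW63, 4.28 in LW70 and 4.70 in LW119, and 4.64 FPKM in LW82, 4.48 in LW88 and 3.95 in LW90. All 6 pigs lay within 1 FPKM of each other, and the CV of 6.88% was undercut by only 0.282% of all tested genes. The least steady of the 20 was HOXB4, with a CV of 76.1%, from 0.0745 FPKM in LW90 to 1.13 FPKM in LW63.

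The steadiness of HOXD9 was seen only in the sum of its transcripts. The Ensembl transcript had 4.28 FPKM in LW70, 4.64 in LW82 and 4.48 in LW88, 1.03 in LW63, and was listed at 0 in LW119 and LW90. A transcript assembled from the reads over nearly the same locus had 4.70 FPKM in LW119, 3.95 in LW90 and 3.72 in LW63, with 0 listed for LW70, LW82 and LW88. Each row alone had a CV above 95%, and neither split followed the groups. The same was found for HOXD8, where 2 assembled transcripts with the same start and end traded places. One of them ran from 0 FPKM in LW82 to 19.8 FPKM in LW70 and the other from 0.916 FPKM in LW88 to 13.6 FPKM in LW82, while their sum lay between 12.3 and 23.7 FPKM. The main Ensembl transcript of HOXD8 kept between 42.4% and 48.8% of the gene's FPKM in every pig. From Ensembl transcripts alone, HOXD9 would count as expressed in 4 of 6 pigs and the mean of HOXD8 would be 14.2 FPKM.

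**Figure D2:**
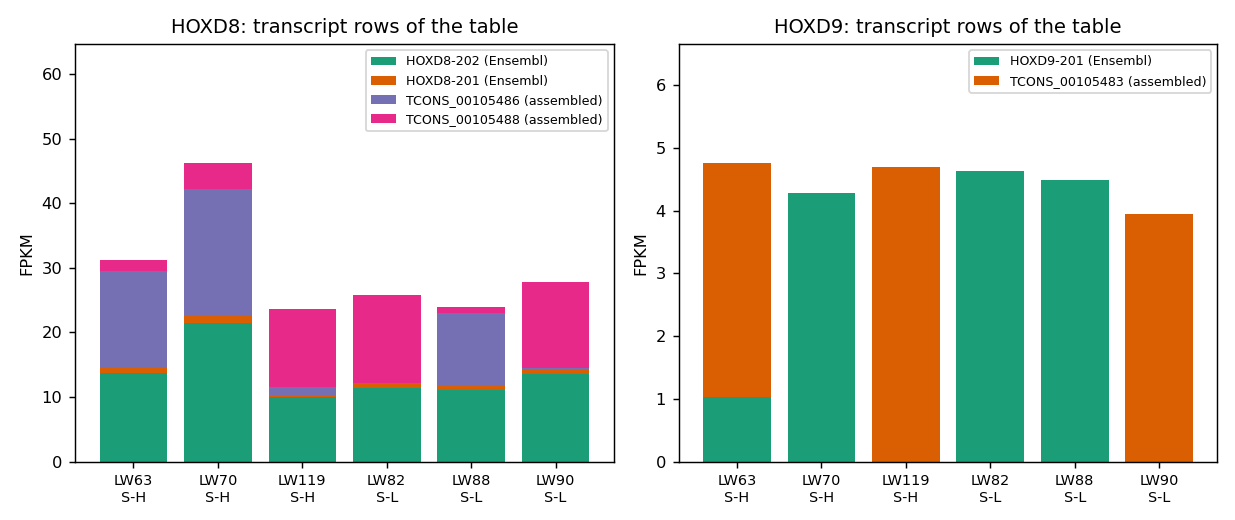
Stacked FPKM of the transcripts of HOXD8 (left) and HOXD9 (right) in each pig, with Ensembl transcripts and transcripts assembled from the reads in different colours. The height of the HOXD9 bars stays between 3.95 and 4.76 FPKM while the Ensembl and the assembled transcript replace each other, and the 2 assembled transcripts of HOXD8 do the same.

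The study's design compares S-H with S-L, and the question here was whether the HOX genes differed between muscles with much and with little fat. None of the 20 HOX genes with a mean of at least 0.1 FPKM passed the thresholds in limma on log2(FPKM + 0.1), which were p below 0.01 before adjustment together with a log2 fold change of 1 or more in either direction. Of the 16333 tested genes 1.25% passed, 0.931% as higher and 0.318% as lower in S-H. Of the 20, 1 gene, HOXB3, had p below 0.05 before adjustment, against 7.45% of all tested genes. No tested gene, HOX or other, had a Benjamini-Hochberg adjusted p below 0.05 in limma. The 3 S-H and the 3 S-L pigs did not overlap for 1 of the 20 genes, HOXB2, against 14.0% of all tested genes. Each of these counts was at or below the background of all genes.

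The median log2 fold change of the 20 HOX genes was 0.16, against 0.19 for all tested genes. On the deposited scale 16 of the 20 were above 0, as were 70.6% of all tested genes, and 9 of the 20 were above the median of all genes. After division by median-ratio size factors, which bring the median of all genes to 0.0068, the median of the HOX genes was 0.0085 and 11 of the 20 were above 0. HOXA5, HOXA10, HOXC9, HOXD4 and HOXD9 then changed sign.

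The 95% interval of the log2 fold change lay inside −1 to 1 for 8 of the 20 genes, so that a difference of 2-fold or more on this scale was outside their intervals. For HOXD9 the log2 fold change was 0.071, with an interval from −0.45 to 0.60. For HOXD8 it was 0.33 (−0.30 to 0.95), and for HOXC9 0.16 (−0.55 to 0.87). The value of HOXD8 rested on single pigs, at 0.073 without LW70 and 0.56 without LW119. For the other 12 genes the interval reached past −1 or 1, and for 11 of them, all but HOXB3, it held both 0 and a 2-fold difference. A fold change on log2(FPKM + 0.1) understates the change of weakly expressed genes.

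**Figure D3:**
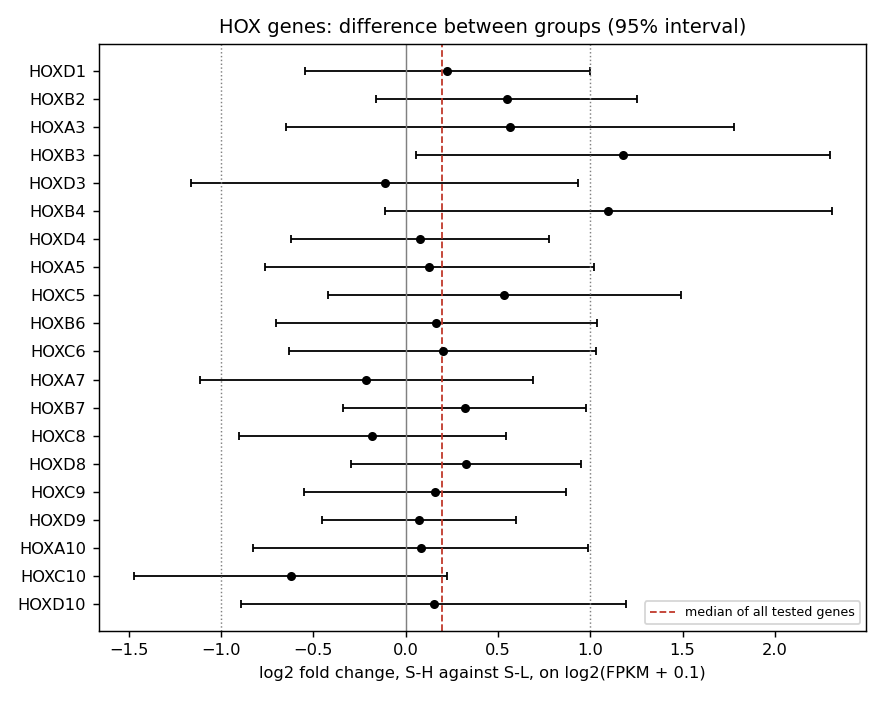
Log2 fold change of S-H against S-L with its 95% interval from limma for the 20 tested HOX genes, ordered by paralogue group. All intervals but that of HOXB3 include 0, the dashed line marks the median of all tested genes (0.19), and the dotted lines mark −1 and 1.

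The genes nearest to the thresholds lay side by side in the HOXB cluster on chromosome 12. HOXB3 (24804647 to 24806783) had 0.777 FPKM in LW63, 0.704 in LW70 and 0.564 in LW119, and 0.644 FPKM in LW82, 0.126 in LW88 and 0.141 in LW90. The groups overlapped because LW82 was level with the S-H pigs. The log2 fold change of HOXB3 was 1.18 with a standard error of 0.50 (limma, adjusted p = 0.663, unadjusted p = 0.0419). Without LW82, HOXB3 passed the thresholds (log2 fold change 1.73, limma, adjusted p = 0.391, unadjusted p = 0.00188), and without any other single pig it did not. That fit leaves out the very pig that made the groups overlap, and 297 of 16265 genes passed in it.

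HOXB4 (24830453 to 24832534) had 1.13, 0.490 and 0.389 FPKM in LW63, LW70 and LW119, and 0.464, 0.268 and 0.0745 FPKM in LW82, LW88 and LW90. Here too LW82 lay within the S-H range, and the log2 fold change was 1.10 with a standard error of 0.54 (limma, adjusted p = 0.669, unadjusted p = 0.0704). HOXB2 (24796533 to 24799536) had 1.20, 0.972 and 0.897 FPKM in the S-H pigs against 0.831, 0.575 and 0.608 FPKM in LW82, LW88 and LW90. Its groups did not overlap, and its log2 fold change was 0.55 with a standard error of 0.31 (limma, adjusted p = 0.689, unadjusted p = 0.114). The markers of fat cells were also higher in every S-H than in every S-L pig, and their part in these values was not tested.

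HOXC10, the strongest group 10 gene, had the most negative value of the 20. It had 0.930, 1.74 and 1.30 FPKM in LW63, LW70 and LW119 against 2.58, 1.24 and 2.58 FPKM in LW82, LW88 and LW90. The overlap came from LW88, which lay below 2 of the S-H pigs. The log2 fold change was −0.62 with a standard error of 0.38 (limma, adjusted p = 0.706, unadjusted p = 0.132). Below the minimum for testing, HOXD11 had 0.0396, 0.0395 and 0 FPKM in the S-H pigs and 0.163, 0.0766 and 0.112 FPKM in the S-L pigs, without overlap (p = 0.10 in an exact permutation test, two-sided, the lowest value possible for 3 against 3). HOXD11 was picked for this value from the HOX genes below the minimum. The share of all such genes without overlap was not computed. HOXB8, also below the minimum, went the other way, with 0.0208, 0.0810 and 0.0758 FPKM in S-H. In S-L it had 0.0230, 0 and 0 FPKM, with overlap (p = 0.2 in the same permutation test).

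In the low-numbered groups, LW88 and LW90 were often below the other 4 pigs. They were the 2 lowest for 7 of the 9 tested genes of groups 1 to 5, namely HOXA3, HOXA5, HOXB2, HOXB3, HOXB4, HOXC5 and HOXD4, and for 0 of the 11 tested genes of groups 6 to 10. Over all tested genes LW88 and LW90 were the 2 lowest for 17.4%. The split after group 5 and the 2 pigs were chosen after the values were seen, so that the counts are a description. HOXA3, for example, had 0.0683 FPKM in LW88 and 0.0445 in LW90 against 0.175 to 0.390 FPKM in the other 4 pigs, and HOXC5 had 0.104 and 0.0704 FPKM against 0.177 to 0.298 FPKM. The summed level of groups 3 to 5 was 6.24 FPKM in LW88 and 6.08 in LW90, against 8.12 to 13.7 FPKM in the other 4 pigs. As a share of the summed HOX FPKM, groups 3 to 5 held 11.7% in LW88 and 9.78% in LW90, and LW70, with 10.8%, was below LW88. The exceptions were HOXD1, lowest in LW82 and LW70, and HOXD3, which was low in LW88 (0.268 FPKM) but not in LW90 (0.834 FPKM).

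Median-ratio size factors lowered this count, and the TPM scale, on which each library has the same sum, did not. On the TPM scale it was 7 of the 9 genes, against 17.9% of all tested genes, with 1 of the 11 genes of groups 6 to 10. With median-ratio size factors LW88 and LW90 were the lowest pigs for 5 of the 9 genes, and HOXA5 and HOXD4 no longer counted. Over all tested genes LW88 and LW90 were then the lowest for 8.81%, against 17.4% without scaling. These 2 libraries also had the fewest genes above 0, 19250 in LW88 and 19723 in LW90 against 20142 to 20559 in the other 4, and the lowest summed fat cell markers, 215.2 and 158.5 FPKM. The part of either in the pattern was not tested.

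**Figure D4:**
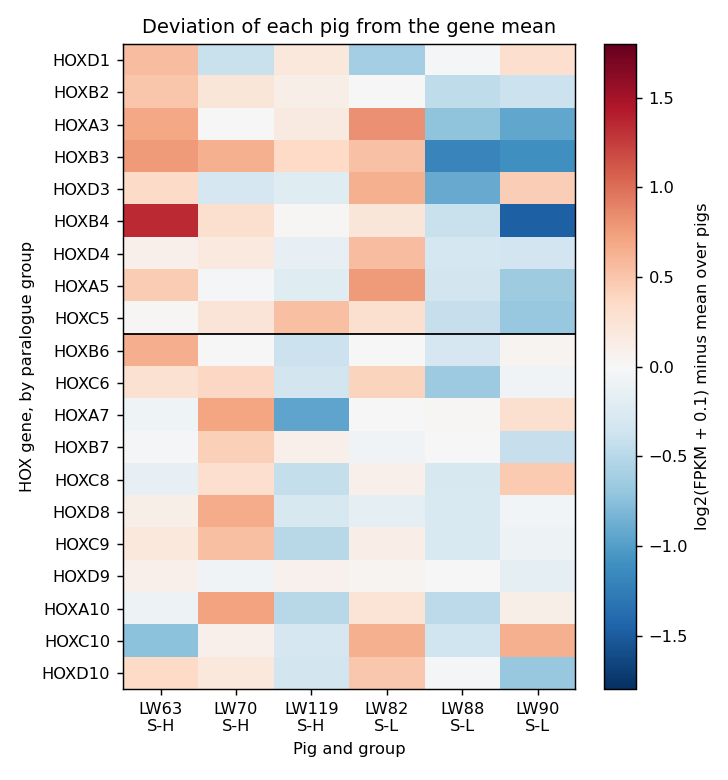
Deviation of log2(FPKM + 0.1) in each pig (columns) from the mean of the gene over the 6 pigs, for the 20 tested HOX genes in the order of the paralogue groups (rows), red above and blue below the mean. Above the black line, which closes group 5, LW88 and LW90 are below the mean for most genes, with −1.19 and −1.10 for HOXB3, and below the line the row of HOXD9 is nearly white.

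The clusters also held other transcripts. Between the outermost HOX genes of the 4 clusters lay 26 further loci, which include the unnamed HOXA4 and HOXA9, 13 of them assembled from the reads, and 14 had at least 0.1 FPKM in every pig. When the assembled loci were added to the fit, 18 of the 26 were tested and none passed the thresholds, which 1.41% of the 18894 loci in that fit passed. An unadjusted p below 0.05 in limma was found for 2 of the 18, both in the HOXC cluster. Over the whole fit it was found for 1404 of the 18894 loci.

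The strongest of these loci was assembled in the HOXD cluster from just beyond HOXD8 across HOXD4, with a transcript that the authors named as antisense to HOXD4 (chromosome 15, 81935581 to 81954801). Its summed level was 5.85, 5.06 and 5.52 FPKM in LW63, LW70 and LW119 and 4.92, 5.43 and 7.34 FPKM in LW82, LW88 and LW90. It was thus read at a level above that of HOXD4 in 5 of the 6 pigs, LW82 being the exception, with a log2 fold change of −0.088 between the groups (adjusted p of 0.945 from limma).

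In the HOXC cluster, an assembled locus beside HOXC9 (chromosome 5, 19211494 to 19212832), which ends before the Ensembl locus of HOXC9 but overlaps the RefSeq locus (19212490 to 19215859), had 5.07, 4.13 and 3.56 FPKM in LW63, LW70 and LW119 against 2.57, 2.67 and 2.82 FPKM in LW82, LW88 and LW90. The groups did not overlap, and the log2 fold change was 0.63 with a standard error of 0.25 (limma, adjusted p = 0.644, unadjusted p = 0.0352). Another assembled locus covers nearly the same bases (19211487 to 19212760), so that fragments may have been divided between them. It had 0.935, 0.819 and 0.432 FPKM in S-H and 0.636, 0.781 and 0.652 FPKM in S-L, with overlap and a log2 fold change of 0.018. HOXC9 itself, at 4.50, 5.80 and 2.78 FPKM in S-H and 4.31, 3.25 and 3.70 FPKM in S-L, did overlap. A further assembled locus between HOXC9 and HOXC8 (19218339 to 19219569) had 0.326, 0.0508 and 0.238 FPKM in the S-H pigs with 0 listed for every S-L pig (limma, adjusted p = 0.629, unadjusted p = 0.0267).

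HOX proteins bind DNA together with homeodomain cofactors of the TALE class. All 9 of these cofactors were tested, and none passed the thresholds, which 1.25% of all tested genes passed. PBX2 had between 6.24 and 12.1 FPKM, and PKNOX2, MEIS1 and PBX3 had means of 4.24 ± 0.531, 2.97 ± 0.916 and 2.17 ± 0.323 FPKM (SD, n = 6 each). PBX4 was lowest, at most 0.214 FPKM. The mean of PBX2 (9.17 FPKM) was above that of every HOX gene except HOXD8. MEIS2 had 1.63, 0.812 and 1.65 FPKM in LW63, LW70 and LW119 against 0.822, 0.565 and 0.390 FPKM in LW82, LW88 and LW90, and its log2 fold change was 1.07 with a standard error of 0.39 (limma, adjusted p = 0.649, unadjusted p = 0.0237). Without LW70, the S-H pig that lay below LW82, MEIS2 passed the thresholds, with a log2 fold change of 1.38. In that fit 274 of 16361 genes passed. The summed level of the 9 cofactors was 24.2 FPKM in LW88 and 24.5 in LW90, and between 31.6 and 34.8 FPKM in the other 4 pigs.

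Other genes that set or keep HOX expression showed no call either. Of the 28 cofactors and regulators listed, 27 were found and 23 tested. Of the 23, 0 passed the thresholds, against 1.25% of all tested genes. An unadjusted p below 0.05 in limma was found for 1, MEIS2, against 7.45% of all tested genes. The median log2 fold change of the 23 was 0.26, against 0.19 for all tested genes. CDX1, CDX2 and CDX4, activators of HOX genes in the embryo, were at most 0.0804 FPKM in any pig. Of 7 listed Polycomb genes, which keep silent HOX genes closed, 6 were found, at unlike levels. BMI1 had between 15.6 and 24.7, EED between 8.06 and 11.1 and SUZ12 between 3.76 and 6.28 FPKM. RNF2 had between 2.23 and 4.80, EZH2 between 0.617 and 1.26 and CBX2 between 0.0164 and 0.266 FPKM. KMT2A, whose product keeps active HOX genes open, had between 3.23 and 6.74 FPKM.

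Genes that mark other positions were compared with the HOX code. TBX5, a gene of the forelimb, was listed at 0 in all 6 pigs, and TBX4 and PITX1, genes of the hindlimb, were each above 0 in 1 pig only, at most 0.00683 FPKM. TCF21, a gene of head muscle precursors, was above 0 only in LW70. ZIC1, a gene of the dorsal neural tube and dorsal somite, had between 2.96 and 6.48 FPKM, and MEOX2, a gene of the somite, between 9.79 and 15.2 FPKM. SIX4, a general muscle regulator, had between 5.66 and 14.2 FPKM. Of the 18 genes listed, 17 were found and 12 tested, and none passed the thresholds in limma, which 1.25% of all tested genes passed.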

How the data were processed

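RNA from the LD muscle of 6 pigs was sequenced with 1 library per pig. As the methods and labels state, the authors removed ribosomal RNA, kept strand information in the libraries, mapped reads with HISAT2 to Sscrofa11.1 and used StringTie for assembly and quantification, with versions not given in the sources used here. The deposited values are FPKM per transcript, computed by the authors, for 83119 transcripts. The 21104 Ensembl transcripts without a symbol were found from the values to be in TPM and were multiplied by 1 factor per pig, from 0.639 to 0.847, computed from the sums of the deposited table. This step touches HOXA4, HOXA9 and the background but none of the 36 genes. The sources name no scaling between libraries, and the values were used without any.

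Transcripts were summed by gene identifier. Ensembl genes with a mean of at least 0.1 FPKM (16333) were tested, S-H against S-L, by limma 3.58.1 (R 4.3.3, trended prior variance) on log2(FPKM + 0.1), with p below 0.01 before adjustment and a log2 fold change of 1 or more in either direction, since FPKM does not allow the authors' count test, edgeR. The fit was tested on simulated data. An exact permutation test (two-sided) was run on each HOX gene above 0 in any pig. Its p is given only for HOXD11 and HOXB8, which were picked after the values were seen. Names missing from the table were taken from an Ensembl gene name table and, by position, from RefSeq of the same assembly. Python 3.11.15, pandas 2.3.3 and scipy 1.17.1 were used. The genes named came from the HOX genes, listed cofactors, regulators and position genes, and other loci within the clusters, and some of these genes enter the counts but are not reported here by name. The members and lists were chosen with earlier results of these data known. Each library came from a different pig, so p-values measure the spread between these pigs.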

Additional observations from a re-analysis of the deposited data

How the results depend on the processing

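The number of HOX genes called between S-H and S-L was 0 in every setting tried except without LW82, where HOXB3 was called, so that it ranged from 0 to 1 with each pig left out. Without LW82, 297 of all 16265 tested genes were called. Median log2 fold changes of the HOX genes stayed between 0.077 and 0.35 with each pig left out. No paired analysis was possible because S-H and S-L hold different animals and the labels give no numbers that pair them.

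Among all genes, 204 were called, 152 higher and 52 lower in S-H. The count was 81 with a pseudocount of 1 FPKM, 118 with a minimum mean of 1 FPKM, 0 at an adjusted p below 0.05 (limma, with 1217 at an unadjusted p below 0.05), 135 without LW63, 134 without LW90 and at most 297 without any other pig. Calls were 94 higher and 90 lower with median-ratio size factors, and 252 and 37 on the TPM scale. Of the cofactors and regulators, 1 was called from Ensembl transcripts only (PBX3, log2 fold change 1.35) and 1 without LW70 (MEIS2), with a range from 0 to 1 over the pigs left out. Of all tested genes, 183 of 14624 were called from Ensembl transcripts only and 274 of 16361 without LW70.

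Signs of uncalled genes were not stable. With size factors the log2 fold change became −0.066 for HOXA5, −0.10 for HOXA10, −0.039 for HOXC9, −0.12 for HOXD4, −0.13 for HOXD9, −0.079 for PBX3 and −0.11 for PKNOX2. It became 0.0057 for HOXD3 on the TPM scale and −0.71 for HOXD9 from Ensembl transcripts only. With each pig left out the log2 fold change ran from −0.26 to 0.35 for HOXA10, −0.16 to 0.55 for HOXA5, −0.62 to 0.21 for HOXA7, −0.12 to 0.40 for HOXB6, −0.072 to 0.45 for HOXC6, −0.38 to 0.011 for HOXC8, −0.075 to 0.44 for HOXC9, −0.026 to 0.48 for HOXD1, −0.15 to 0.43 for HOXD10, −0.60 to 0.18 for HOXD3, −0.076 to 0.37 for HOXD4 and −0.070 to 0.22 for PBX3. Without a change of sign it ran from 0.073 to 0.56 for HOXD8, 0.64 to 1.48 for HOXB4 and −0.96 to −0.41 for HOXC10.

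The number of HOX genes expressed in all 6 pigs was 13 at 0.5 FPKM, 9 at 1 FPKM, 15 from Ensembl transcripts only and 16 to 18 with each pig left out. From Ensembl transcripts only, the mean share was 10.3% for group 1, 2.07% for group 2, 3.05% for group 3, 3.51% for group 4, 3.93% for group 6, 12.9% for group 7, 37.6% for group 8, 14.4% for group 9 and 6.28% for group 10. On log2(FPKM + 1) it was 3.16% for group 2, 4.98% for group 3, 9.61% for group 4, 7.95% for group 5, 5.70% for group 6, 12.3% for group 7, 22.6% for group 8, 16.2% for group 9, 8.33% for group 10 and 0.526% for group 11. The fit with assembled loci, the scalings of the count for LW88 and LW90 and the count and cluster shares with HOXA4 and HOXA9 were chosen after seeing the data. The causes of the shifts between settings were not tested. All shares of the paralogue groups leave out HOXA4 and HOXA9. Read totals were not used here, so no limit is given for values listed at 0.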
